A study of Mus musculus with 5 samples.

Results

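Corticotropin-releasing hormone and 7 genes that receive or answer glucocorticoids were followed through the cells of the mouse lung just before birth. The 8 genes were Crh, the corticoid receptors Nr3c1 and Nr3c2, the activating enzyme Hsd11b1, and the targets Fkbp5, Tsc22d3, Per1 and Zbtb16. They were found by symbol among the 32285 genes of the count matrices, and each symbol belonged to 1 gene. Crh was put in the set because it was higher in the Zswim8-/- libraries of these same data, so its values are a description and carry no test. The 7 other genes were chosen for their role, with earlier results of these data in view.

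Corticotropin-releasing hormone is a peptide known best from the hypothalamus, where it starts the release of adrenocorticotropin and, through it, of adrenal glucocorticoids. In target cells the enzyme 11β-hydroxysteroid dehydrogenase type 1 regenerates active corticosterone, which binds the glucocorticoid receptor, and the receptor then moves to the nucleus and turns on target genes. Late in gestation, glucocorticoids thin the walls of the lung and raise surfactant and sodium transport, and mice without Crh or without the receptor in lung mesenchyme are known for immature lungs.

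Droplet-based 3′ RNA counts came from the dissociated whole lungs of 5 embryos at E18.5, with 1 library per embryo. The labels give 2 heterozygous embryos (Zswim8+/-, Het1 and Het2), which served as the controls, and 3 homozygous knockouts (Zswim8-/-, KO1, KO2 and KO3). No wild-type embryo was among them, no hormone treatment is labelled, and the allele is not stated in the sources used here. Zswim8 encodes a ubiquitin ligase adaptor that acts in microRNA decay. Its own level in CPM, the count of unique molecular identifiers (UMIs) relative to the library total, scaled by the trimmed mean of M values (TMM), was 37.0 and 38.3 in Het and 38.4, 38.8 and 39.99 in KO, so the groups are named from the labels alone.

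The libraries held 56608582 to 93708304 UMIs in all and 3051 to 4634 cells after filtering, with a median of 9703 to 12662 UMIs per cell. The labels do not say whether embryos shared a litter, and p-values measure only the spread between these libraries. Levels by cell class are plain CPM, and values in tests are TMM-scaled. Library pairs shared 17 to 44 cell barcodes. By Xist and Y-linked UMIs, Het1, Het2 and KO3 were male and KO1 and KO2 female, so sex and genotype overlap in part, and Tsc22d3 lies on the X chromosome. Cells were clustered and named from marker genes, and a name such as alveolar myofibroblast-like says that these markers were found. The alveolar myofibroblast-like class rested on 10 of 12 listed markers, with Hhip, Wnt5a and Pdgfra among its 10 leading genes, beside 1 smooth muscle marker, Myh11. Crh was the leading gene of this cluster.

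Crh (ENSMUSG00000049796, GRCm38 chromosome 3, 19693401 to 19695396, minus strand, protein-coding) was read almost wholly from alveolar myofibroblast-like cells. Alveolar myofibroblasts, whose markers gave the class its name, are PDGFRα-bearing cells that line the sites where alveolar septa form. Cells of the class held 93.9% and 86.7% of the Crh UMIs of Het1 and Het2, and 89.8%, 76.6% and 80.6% of those of KO1, KO2 and KO3. They made up 2.91% and 2.98% of the kept cells in Het and 3.83%, 2.66% and 3.604% in KO. The mean over the 5 libraries was 545 CPM (SD 261) in this class, and 9.3 CPM (SD 6.3) in the next, an unnamed epithelial cluster led by Cldn18, Lmo7 and Foxp2. The ranges of these 2 classes did not overlap. In the rest of the order, the ranges of neighbours overlapped from the cluster led by Cldn18 down.

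**Figure D1:**
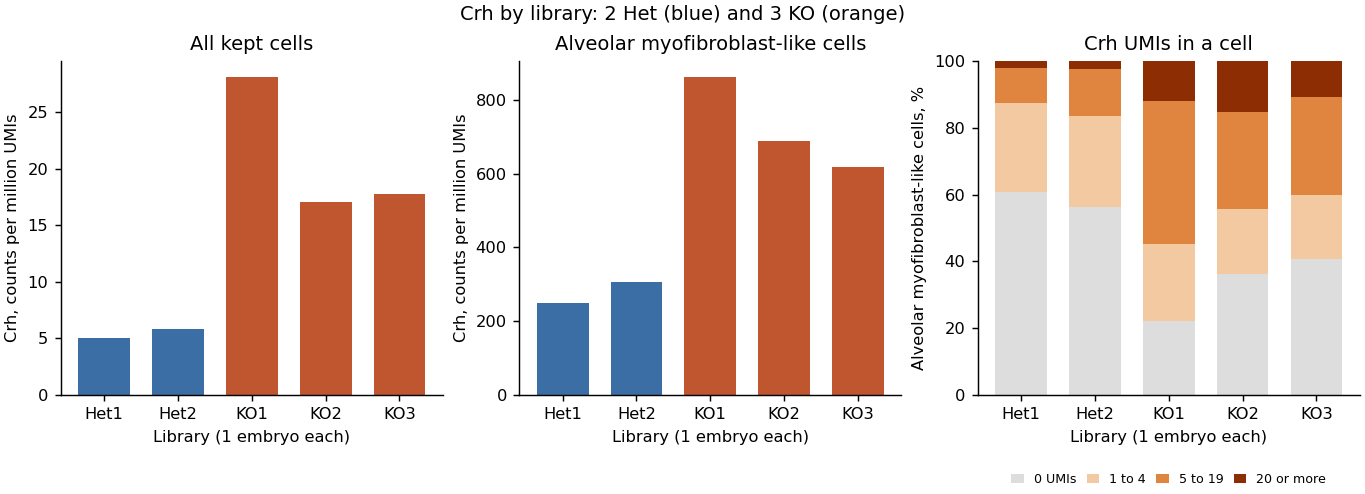
Crh in each library: CPM over all kept cells (left) and over alveolar myofibroblast-like cells (middle), with bars for single libraries, and the share of alveolar myofibroblast-like cells by their number of Crh UMIs (right). The 3 KO libraries lie above both Het libraries in the left and middle plots, and cells with 20 or more Crh UMIs number 3 and 3 in Het and 14, 13 and 15 in KO.

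Within alveolar myofibroblast-like cells, Crh stood at 249 CPM in Het1, 306 in Het2, 863 in KO1, 690 in KO2 and 618 in KO3. Even the lowest KO library lay above the sum of both Het libraries, so the groups did not overlap. The Het mean was 277.5 CPM ± 40.5 (SD, n = 2) and the KO mean 724 CPM ± 126 (SD, n = 3), a ratio of 2.61. When the members were left out of the genes used for clustering, the ratio was 2.62, and at a finer clustering it was 2.81. Among male embryos alone, KO3 stood at 2.21 times the mean of the Het libraries on TMM-scaled values.

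More of these cells held the transcript in KO, and cells with a UMI held more of it on average. A Crh UMI was found in 39.3% of 135 cells of Het1 and 43.8% of 121 cells of Het2. The shares were 77.8% of 117 cells in KO1, 64.0% of 86 in KO2 and 59.3% of 140 in KO3. With every cell thinned to 3000 UMIs, which left out 2 and 9 shallower cells in Het and 11, 1 and 5 in KO, they were 26.3% and 37.5% in Het and 67.0%, 54.1% and 48.9% in KO. At that depth the exact 95% binomial intervals, which cover counting error only, reached 47.1% in Het2 and began at 40.2% in KO3, so these 2 libraries were not told apart by counting error alone. Without thinning, cells with a UMI held a mean of 5.55 and 5.79 Crh UMIs in Het, and 11.2, 12.2 and 11.1 in KO. The highest single cell held 61, in KO1. Median depth was 7315 and 8241 UMIs in Het and 7748, 10463.5 and 9202 in KO. Over all cells thinned to 3000 UMIs, with or without Crh, the mean was 0.774 and 0.9375 Crh UMIs per cell in Het. In KO it was 3.13, 2.14 and 2.36.

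The class itself also differed between the groups. The 11 of its 12 listed markers that were tested summed to 5489 to 5948 CPM in Het and 3601 to 4390 CPM in KO. Pdgfra, a receptor among these markers that is also on the mesenchymal lineage list, fell from 786 and 879 CPM to 506 to 554 CPM (log2 fold change -0.66, SE 0.12, edgeR adjusted p = 0.042). The 10 smooth muscle markers summed to 4322 to 5220 CPM in Het and 5608 to 12280 CPM in KO. The part of these differences in the Crh values was not tested. Alveolar myofibroblast-like cells were 22.7% and 19.9% of mesenchymal cells in Het and 12.9%, 13.7% and 15.8% in KO.

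Outside alveolar myofibroblast-like cells, Crh was rare in every library. Epithelial cells held 9 and 37 Crh UMIs in Het and 74, 140 and 165 in KO. With mixed cells left out, in which 3 or more markers of a second lineage were found, 0 and 0 remained in Het and 4, 1 and 2 in KO. The mixed epithelial cells were deeper, with library medians of 16640 to 49874 UMIs against 3147 to 9742 in the rest. The part of depth in this drop was not tested. A Crh UMI was found in 0.17% and 0.307% of immune cells in Het and in 0.814%, 0.445% and 0.986% in KO. Red-cell barcodes, which should not make it, held one in 0.106% and 0.0238% in Het and in 0.536%, 0.252% and 0.443% in KO, at a median of 2328 to 2621.5 UMIs. Immune cells had 11452.5 to 13163 UMIs. Thinned to 3000 UMIs, immune cells held one in 0 and 0.142% in Het and 0.102%, 0.121% and 0.0529% in KO, and red-cell barcodes in 0.0354% and 0.0546% in Het and 0.28%, 0.176% and 0.149% in KO. Thinning left out 3770 of 6596 and 2363 of 4195 red-cell barcodes in Het. In KO it left out 1151 of 1865, 2272 of 3972 and 1824 of 3163. Before thinning, no immune cell held more than 1 Crh UMI. Whether the immune UMIs are background or expression was not tested.

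Over all kept cells, Crh stood at 5.14 and 5.85 CPM in Het and at 28.3, 16.9 and 17.4 CPM in KO, TMM-scaled. KO1 was the highest library, and even KO2, the lowest of KO, stood at more than both Het libraries together. The Het mean was 5.49 CPM ± 0.50 (SD, n = 2) and the KO mean 20.9 CPM ± 6.47 (SD, n = 3), a ratio of 3.801. In sums over whole libraries, fewer cells of a type and less RNA per cell cannot be told apart.

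Across the 31 classes and unnamed clusters, the genes whose pattern was most like that of Crh were Cyp2e1, Grin2b, Col6a4, Egfem1 and Kiss1. Their Pearson correlations of log2(CPM + 1) with Crh, over UMIs pooled from the 5 libraries, ran from 0.86 to 0.93. The points share libraries and differ in depth, and the values are a description.

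No receptor for the hormone was measured at a level that allowed a test. Of the 9 genes of the hormone's axis, which included Crhr1, Crhr2, Crhbp and the urocortins, 4 passed the filter on low counts in the sum of all kept cells. They were Pomc, the precursor of adrenocorticotropin, Mc2r, its receptor, Ucn2 and Avp, and none was called. Pomc was the only one of them tested in each of the 4 lineages.

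The glucocorticoid receptor gene Nr3c1 (ENSMUSG00000024431, chromosome 18, 39410545 to 39519421, minus strand) was found in every class, and its highest level lay in the cells that made Crh. Alveolar myofibroblast-like cells held 326 and 347 CPM in Het and 220, 222 and 271 CPM in KO. Alveolar fibroblast-like cells came next, with a mean of 177 CPM (SD 21.5, n = 5), and the ranges of these classes did not overlap. Mesothelial-like cells followed at 127 CPM (SD 18.1), again without overlap. The lowest class, ciliated-like cells, had a mean of 39.5 CPM.

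The mineralocorticoid receptor gene Nr3c2 (ENSMUSG00000031618, chromosome 8, 76899442 to 77245012, plus strand) binds corticosterone too and was sparse. Its mean was 8.5 CPM (SD 3.7) in club-like cells and 5.9 CPM (SD 1.9) in ciliated-like cells, both airway epithelium, whose ranges overlapped. Ciliated-like cells held 103 of its UMIs over the 5 libraries. Alveolar macrophage-like and alveolar fibroblast-like cells held 0.

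Hsd11b1 (ENSMUSG00000016194, chromosome 1, 193221634 to 193264075, minus strand), the enzyme that regenerates active corticosterone, was highest in alveolar fibroblast-like cells. Its level there was 178 CPM in Het1, 79.7 in Het2, 165 in KO1, 59.9 in KO2 and 90.2 in KO3. The libraries of each genotype spread over more than the distance between the genotypes. Neutrophil-like cells came second, at 80.3 and 86.5 CPM in Het and 65.9, 64.4 and 73.2 CPM in KO, inside the range of the fibroblasts. Cycling alveolar macrophage-like cells followed with a mean of 27.1 CPM, and club-like cells had the lowest, 0.18 CPM.

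Among the targets of the receptor, alveolar myofibroblast-like cells had the highest mean of Fkbp5, Tsc22d3 and Zbtb16. Fkbp5 (ENSMUSG00000024222, chromosome 17, 28399094 to 28517527, minus strand) encodes a co-chaperone that lowers the receptor's affinity for hormone. It had means of 125 CPM (SD 41.1) in alveolar myofibroblast-like cells, 89.5 CPM (SD 9.8) in alveolar macrophage-like cells and 7.47 CPM in AT2-like cells, the lowest. The ranges of the first 2 overlapped.

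Tsc22d3 (ENSMUSG00000031431, chromosome X, 140539528 to 140600659, minus strand), or glucocorticoid-induced leucine zipper, carries part of the hormone's anti-inflammatory action. Its means were 195 CPM (SD 86.3) in alveolar myofibroblast-like cells and 103 CPM (SD 20.9) in macrophage-like cells, with overlapping ranges. Alveolar macrophage-like cells had the lowest, 27.3 CPM. Zbtb16 (ENSMUSG00000066687, chromosome 9, 48654297 to 48836222, minus strand), a zinc-finger repressor, had means of 82.1 CPM (SD 7.7) in alveolar myofibroblast-like and 49.9 CPM (SD 10.3) in alveolar fibroblast-like cells, whose ranges did not overlap. Per1 (ENSMUSG00000020893, chromosome 11, 69095217 to 69109960, plus strand), a clock gene that the receptor also induces, was highest in neutrophil-like cells at 140 CPM (SD 21.1), apart from the 61.3 CPM (SD 5.1) of mesothelial-like cells.

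**Figure D2:**
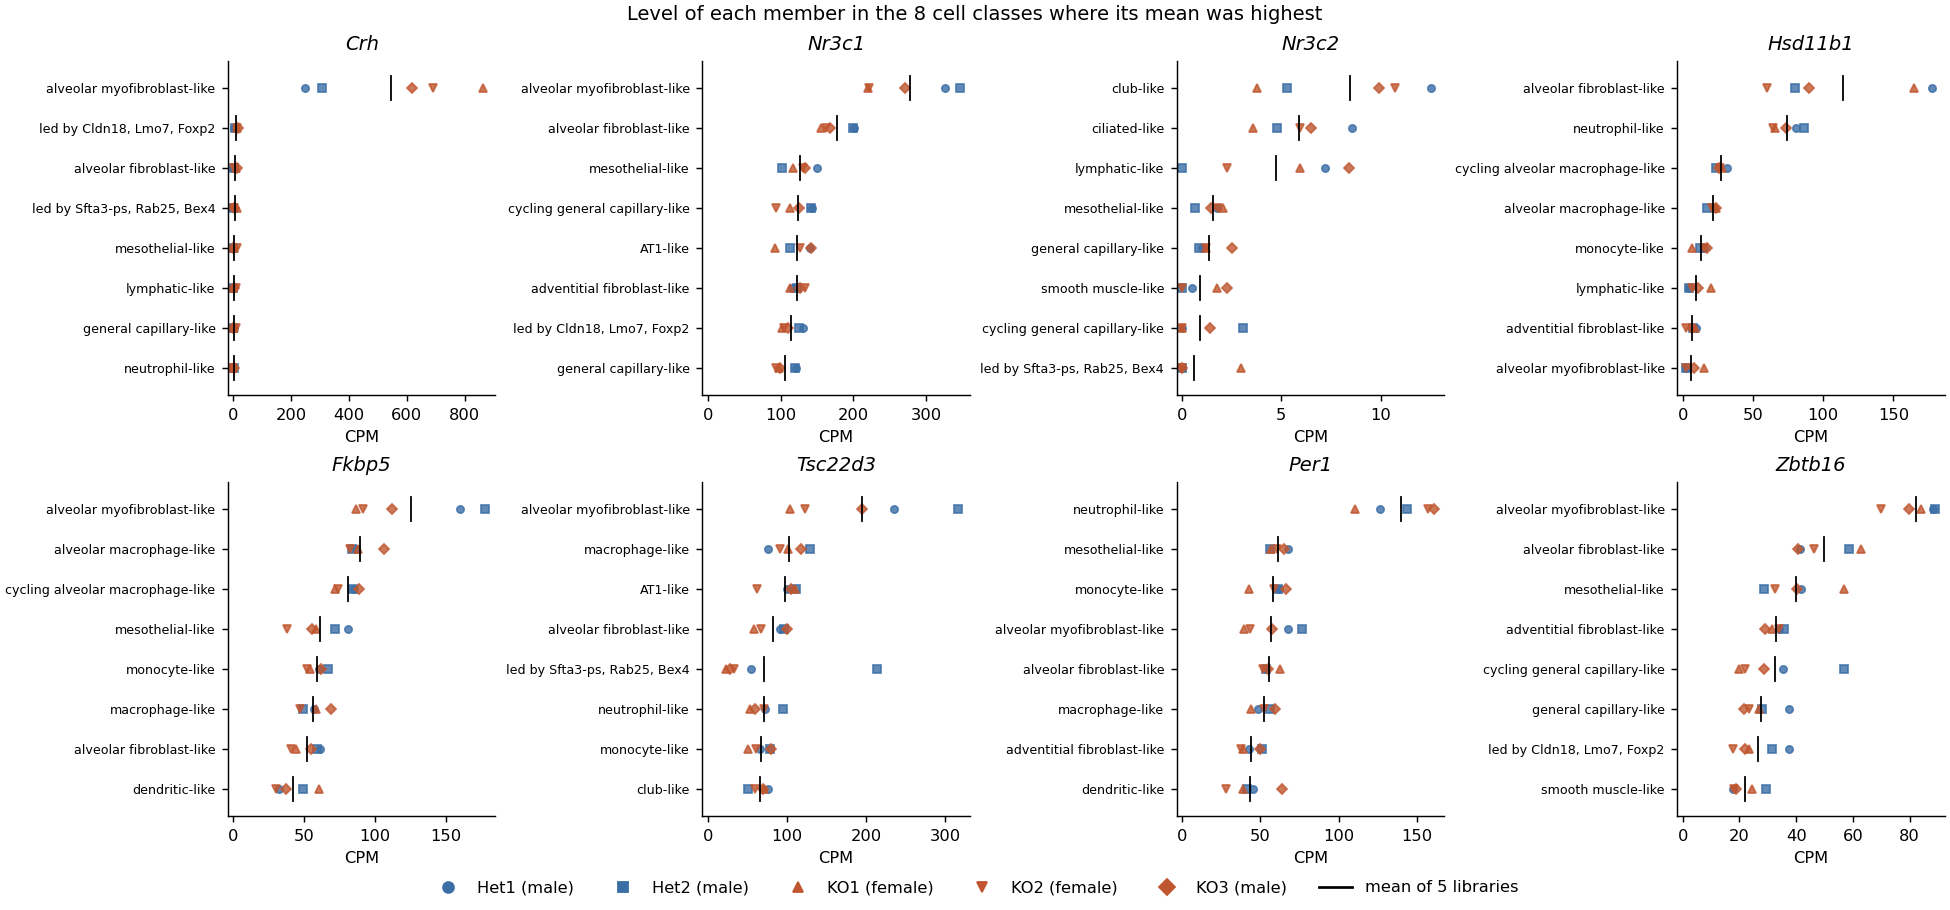
CPM of the 8 genes (x axis) in the 8 cell classes or clusters with the highest mean for each gene (y axis), with 1 symbol per library and a black bar at the mean of the 5 libraries. Crh lies in 1 class, 4 of the other genes also have their highest mean in alveolar myofibroblast-like cells, and the remaining 3 have it in club-like, alveolar fibroblast-like and neutrophil-like cells.

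Among the members, the closest patterns over the 31 groups of cells were those of Nr3c1 with Zbtb16 (r = 0.68) and Nr3c1 with Fkbp5 (r = 0.63). Crh correlated at 0.48 with Nr3c1 and 0.43 with Zbtb16. Nr3c2 ran against Per1 (r = -0.50). The genes most like Nr3c1 were Wac, Crebbp and Arl5b (r from 0.74 to 0.76), and those most like Fkbp5 were Acap2, Tbck and Dse (0.75 to 0.79). Those most like Tsc22d3 were Hmox2, Ing4 and 0610030E20Rik (0.68 to 0.69), those most like Per1 Coq10b, Ndel1 and Cwc25 (0.76 to 0.77), and those most like Zbtb16 Gm26632, Adamts9 and Gm14403 (0.78 to 0.82). For Hsd11b1 they were Rasgrp2, G0s2 and Cpne1 (0.69 to 0.72), and for Nr3c2 Itih2, Cxcl17 and Ugt8a (0.85 to 0.89).

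Het and KO were then compared for the 7 genes other than Crh with edgeR's quasi-likelihood test on UMIs summed per library, over all genes that passed a filter on low counts. A gene was called at a Benjamini-Hochberg adjusted p under 0.05, and CPM below are TMM-scaled. Over all kept cells, 0 of the 7 was called, where 4.11% of the 17730 genes tested were. Before adjustment 3 passed 0.05, where 25.9% of genes did, and DESeq2 also called 0. Nr3c1 stood at 99.2 and 100.1 CPM in Het and 90.9, 88.3 and 92.4 in KO (adjusted p = 0.151). Fkbp5 and Tsc22d3 were also lower in each KO library than in either Het library, so that 3 members lay apart, where 24.1% of genes lay apart in that direction. They had log2 fold changes of -0.30 (adjusted p = 0.189) and -0.29 (adjusted p = 0.183). KO3, the male, lay closest to the Het libraries for all 3.

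**Figure D3:**
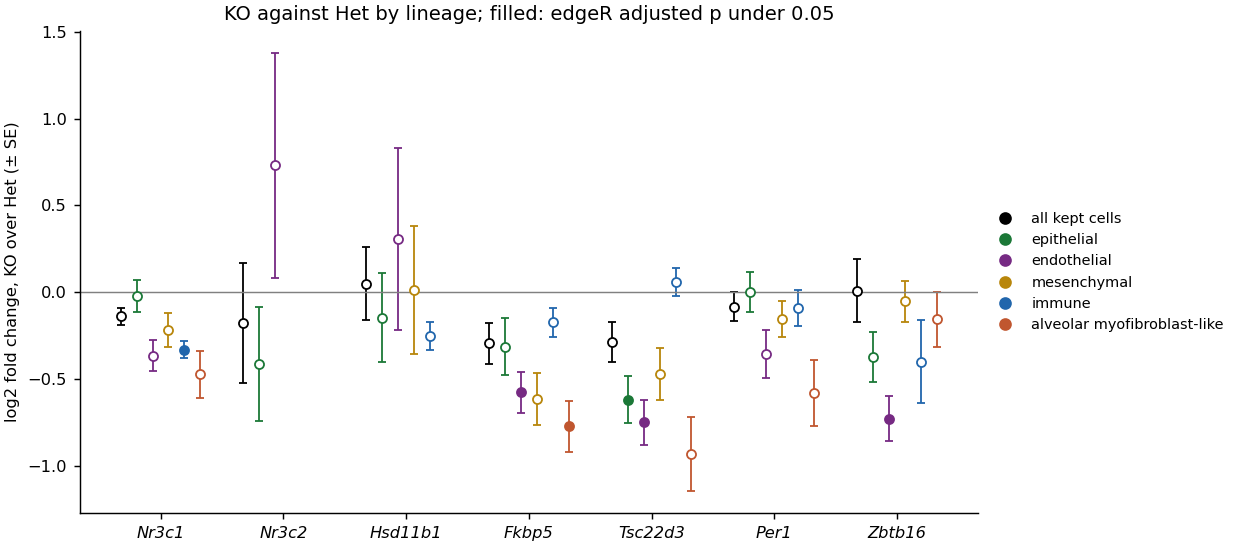
Log2 fold change of KO over Het, with its standard error, for the 7 genes (x axis) in all kept cells, 4 lineages and alveolar myofibroblast-like cells; filled symbols passed an edgeR adjusted p of 0.05. All 6 filled symbols lie below 0: 3 in endothelial sums and 1 each in epithelial, immune and alveolar myofibroblast-like sums.

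Endothelial cells had the most calls among the lineages, a fall of 3 targets. Fkbp5, Tsc22d3 and Zbtb16 were lower in KO, 3 of the 7 members, where 4.65% of the 12052 genes tested were called. Tsc22d3 was 63.7 and 71.0 CPM in Het and 39.9, 34.9 and 44.8 in KO. Zbtb16 was 32.7 and 30.4 CPM in Het and 19.7, 19.7 and 17.9 in KO. Fkbp5 was 38.8 and 43.4 CPM in Het and 29.0, 26.7 and 26.8 in KO. For all 3 genes every KO library lay below both Het libraries. With Nr3c1 and Per1, 5 members lay apart in that direction, where 20.5% of genes did.

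The log2 fold changes were -0.75 (SE 0.13, edgeR adjusted p = 0.0173) for Tsc22d3, -0.73 (SE 0.13, edgeR adjusted p = 0.0178) for Zbtb16 and -0.58 (SE 0.12, edgeR adjusted p = 0.0304) for Fkbp5. Nr3c1 went from 115.8 and 110.9 CPM to 92.3, 85.3 and 86.4 CPM and was not called (-0.37, edgeR adjusted p = 0.057). Per1 was not called either (-0.36, edgeR adjusted p = 0.198). The median over the 7 members was -0.37, and over all genes tested it was 0.00145. With only male embryos, KO3 stood at 0.665 times the Het mean for Tsc22d3, 0.569 for Zbtb16 and 0.653 for Fkbp5.

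Each of these calls needed both Het libraries; with 1 left out, the lone Het library is taken to vary as the KO libraries do. Without Het1 the edgeR adjusted p was 0.0905 for Tsc22d3, 0.179 for Zbtb16 and 0.149 for Fkbp5, and without Het2 it was 0.156, 0.107 and 0.259. Without KO3 the call of Tsc22d3 was kept, while Zbtb16 (0.0611) and Fkbp5 (0.0837) missed the threshold. DESeq2 called Tsc22d3 and Zbtb16 and not Fkbp5 (DESeq2 adjusted p = 0.0721). Without mixed cells, which were 36.4% to 46.5% of endothelial cells, edgeR kept Tsc22d3 (0.0404) and lost Zbtb16 (0.0884) and Fkbp5 (0.0833), and with doublets kept it lost Fkbp5 (0.0584). With sex as a covariate in edgeR none passed (0.174, 0.106 and 0.171). That fit sets KO3 against the Het libraries, and its log2 fold changes were -0.59, -0.82 and -0.61. The makeup of the endothelium moved with the genotype: general capillary-like cells were 66.5% and 68.4% of it in Het and 46.5%, 59.1% and 54.1% in KO, and the 10 aerocyte markers summed to 2418 to 2435 CPM in Het and 1268 to 1427 CPM in KO. Within general capillary-like cells Tsc22d3 was again lower, at 69.0 and 77.4 CPM in Het and 47.1, 29.3 and 46.1 in KO (-0.86, SE 0.19, edgeR adjusted p = 0.0198; 7.47% of 10551 genes called). No cluster was named aerocyte-like, and within this class 9 of 10 aerocyte markers were called lower (2909 to 3042 CPM in all in Het, 1534 to 1809 CPM in KO) and 7 of 13 cycling markers higher (216 to 265 CPM against 403 to 475 CPM). Of 17 immediate-early and heat-shock genes that tissue dissociation raises, 4 were called lower and 0 higher in this class, beside 7.47% of all genes called. In endothelial cells as a whole 3 were called lower and 0 higher, beside 4.65% of all genes. The part of these markers and genes in the results was not tested. The class lost the call of Tsc22d3 without Het1 (0.0971), without Het2 (0.159), with sex as a covariate (0.314), with 1000 genes and 10% mitochondrial UMIs as the limits (0.0545) and at Leiden resolution 2 (log2 fold change -0.44, edgeR adjusted p = 0.46).

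In epithelial cells Tsc22d3 was the 1 member of 7 called, where 11.2% of 15103 genes were. Its level was 64.2 and 69.1 CPM in Het and 43.2, 36.5 and 50.3 in KO, with no overlap and with KO3 nearest to Het (log2 fold change -0.62, SE 0.13, edgeR adjusted p = 0.0219). Leaving out Het1 gave an edgeR adjusted p of 0.0843, leaving out Het2 0.131, and the sex covariate 0.17. Zbtb16 (21.0 and 21.2 CPM against 18.0, 13.3 and 17.7) and Fkbp5 (19.1 and 19.98 against 16.2, 12.5 and 18.6) also separated the groups but were not called; 22.9% of genes lay apart in that direction. Nr3c1 was level, with 86.5 and 91.9 CPM in Het and 84.0, 85.0 and 94.2 in KO (log2 fold change -0.02, SE 0.09, edgeR adjusted p = 0.901). AT1-like cells were 17.6% and 22.6% of epithelial cells in Het and 6.38%, 9.70% and 14.4% in KO. Markers of endothelium in these sums ran at 1126 to 1259 CPM in Het and 213 to 340 CPM in KO. Club markers summed to 16176 to 16795 CPM in Het and 5200 to 7248 CPM in KO, with 8 of 10 called lower, and 9 of 13 cycling markers were called higher (358 to 386 CPM against 584 to 726 CPM). Of the 17 immediate-early and heat-shock genes that dissociation raises, 3 were called lower and 0 higher, beside 11.2% of all genes called. The part of these markers and genes in the result was not tested. Without mixed cells Tsc22d3 kept a log2 fold change of -0.58 and was not called (edgeR adjusted p = 0.0786).

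In immune cells the receptor gene was the member called. Of the 6 members tested there, 5 had a log2 fold change below 0. Zbtb16 (-0.40, edgeR adjusted p = 0.373) and Hsd11b1 (-0.25, edgeR adjusted p = 0.102) were among those not called. Nr3c1 was 86.9 and 89.5 CPM in Het and 68.9, 70.7 and 70.6 in KO (log2 fold change -0.33, SE 0.05, edgeR adjusted p = 0.00745), 1 of the 6 members tested, where 7.92% of 13908 genes were called. The 3 KO libraries, female and male, lay close together. The immune makeup differed as well. Alveolar macrophage-like cells were 31.0% and 30.6% of immune cells in Het and 15.7%, 16.0% and 19.3% in KO, and macrophage-like cells rose from 8.92% and 8.26% to 26.7%, 18.54% and 19.2%.

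Nr3c1 was also called lower in alveolar macrophage-like cells, at 99.1 and 101.9 CPM in Het and 77.0, 75.8 and 74.2 in KO (log2 fold change -0.41, SE 0.07, edgeR adjusted p = 0.00266; 10.2% of 10741 genes called, 6.65% lower). This class joins 2 clusters whose balance differed between the groups: the one led by Spp1, Atp6v0d2 and Inhba held 154 and 161 of its 729 and 697 cells in Het, and 5, 17 and 22 of its 174, 288 and 392 cells in KO. Nr3c1 was not tested within each cluster. It passed with sex as a covariate (edgeR adjusted p = 0.0195) and missed the threshold without Het2 (0.0665). In the same class, 10 of the 12 alveolar macrophage markers were called lower. Of the 17 immediate-early and heat-shock genes that dissociation raises, 5 were called lower there and 0 higher. The part of these markers and genes in the result was not tested. In cycling alveolar macrophage-like cells Nr3c1 was 82.2 and 82.5 CPM in Het and 68.3, 63.4 and 66.1 in KO (-0.32, SE 0.07, edgeR adjusted p = 0.0375; 3.01% of 10989 genes called). There the call was lost without Het1 (0.27), Het2 (0.282) or KO2 (0.173), with library size alone (0.0696), with sex as a covariate (0.157) and in DESeq2 (0.172). Without mixed cells the log2 fold change was -0.19 (0.416) and the groups overlapped. In immune cells as a whole it was lost without Het1 (0.0692) or Het2 (0.125), and it was 0.058 with sex as a covariate. Tsc22d3 stood at 48.2 and 50.6 CPM in Het and 47.8, 49.8 and 56.5 in KO over immune cells (log2 fold change 0.06, SE 0.08, edgeR adjusted p = 0.715).

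**Figure D4:**
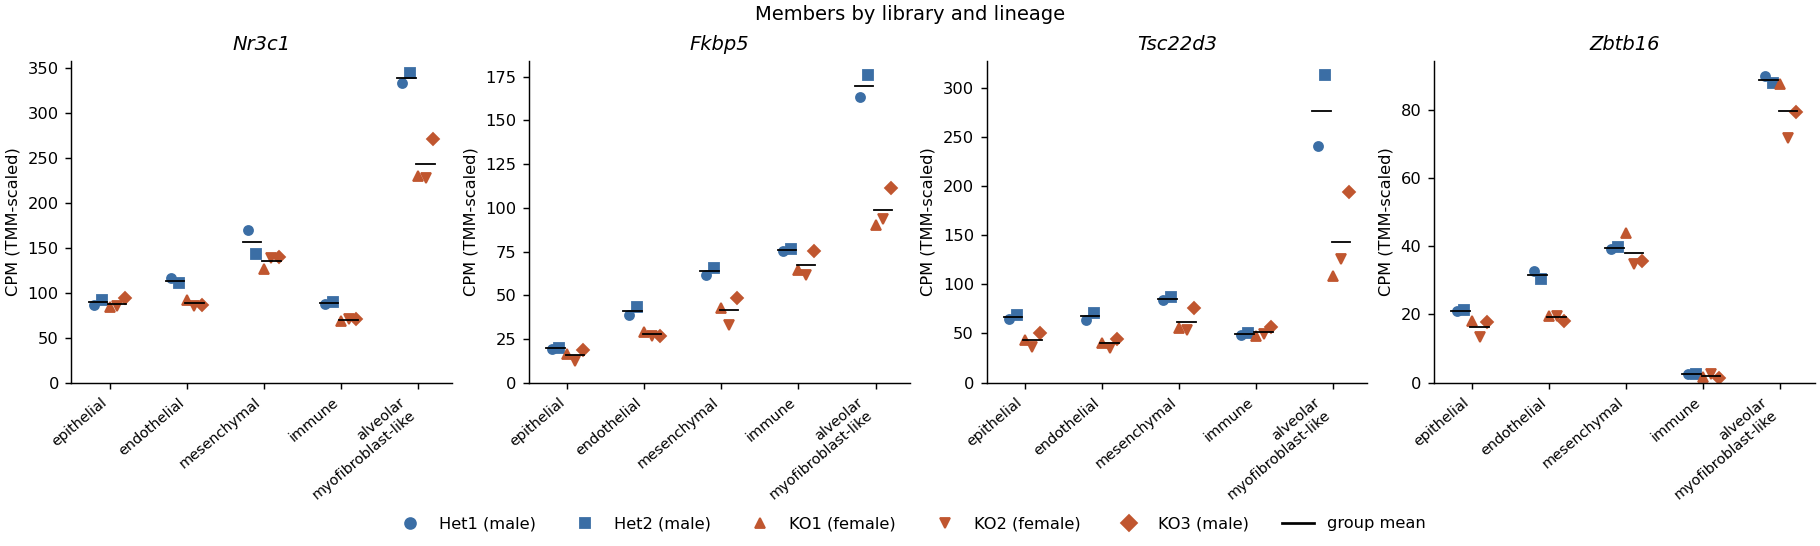
TMM-scaled CPM of Nr3c1, Fkbp5, Tsc22d3 and Zbtb16 (y axis) in each library, for the 4 lineages and for alveolar myofibroblast-like cells (x axis), with black bars at the group means. Endothelial values of Fkbp5, Tsc22d3 and Zbtb16 separate the groups, immune Tsc22d3 does not, and in alveolar myofibroblast-like cells the male KO3 lies nearest to Het for Nr3c1, Fkbp5 and Tsc22d3.

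Over the mesenchymal lineage as a whole 0 of the 6 members tested was called by edgeR, where 0.187% of 13891 genes were. Before adjustment 2 passed 0.05, where 14.1% of genes did, and DESeq2 called 1, Fkbp5 (61.7 and 65.7 CPM against 42.9, 33.1 and 48.2; edgeR log2 fold change -0.62, adjusted p = 0.153; DESeq2 adjusted p = 0.0421). In 6 further classes no member was called: alveolar fibroblast-like (4.22% of genes called, 3.38% lower), monocyte-like (1.36%), macrophage-like (1.14%), smooth muscle-like (0.34%), adventitial fibroblast-like (0.116%) and neutrophil-like cells (0.0554%). These are edgeR calls, and DESeq2 called 0 in the 6 classes as well. Before adjustment, Nr3c1 passed 0.05 in alveolar fibroblast-like and monocyte-like cells (14.4% of genes passed in the latter), Hsd11b1 and Tsc22d3 in neutrophil-like cells (8.53%), and 0 in the other 3. No such share is given for alveolar fibroblast-like cells, so the pass of Nr3c1 there cannot be set against it. Alveolar myofibroblast-like cells, a class tested because it held Crh, had all 5 members that passed the filter lower in every KO library than in either Het library. Among all genes tested there, 14.6% lay apart in that direction and 0.439% of 9113 were called. Fkbp5 was called, at 163 and 176 CPM in Het and 90.3, 93.8 and 112 in KO (log2 fold change -0.77, SE 0.15, edgeR adjusted p = 0.0448).

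Tsc22d3 had the widest difference there, 240 and 313 CPM in Het against 109, 125 and 194 in KO, and was not called (log2 fold change -0.93, SE 0.21, edgeR adjusted p = 0.0754). Nr3c1 (333 and 344 against 230, 228 and 270 CPM), Per1 (69.1 and 76.1 against 41.6, 44.3 and 57.4 CPM) and Zbtb16 (89.9 and 87.9 against 87.6, 71.7 and 79.5 CPM) were not called either. For Fkbp5, Tsc22d3, Nr3c1 and Per1 the male KO3 lay between the Het libraries and the female KO1 and KO2. The call of Fkbp5 was lost without Het1 (edgeR adjusted p = 0.154), Het2 (0.295), KO1 (0.0626) or KO2 (0.0894), and with sex as a covariate (0.696). DESeq2 called Tsc22d3 in these cells (DESeq2 adjusted p = 0.0275) and not Fkbp5 (0.0556). The same cells carried less of the 17 immediate-early and heat-shock genes that tissue dissociation raises, which summed to 21334 to 22192 CPM in Het and 13692 to 17758 CPM in KO. The part of that difference in the result was not tested.

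Whether a member's difference between genotypes varied with the lineage was tested with genotype by lineage terms. Tsc22d3 was called (edgeR adjusted p = 0.000898), 1 of the 7 members, where 10.0% of 16705 genes were. Its log2 fold changes were -0.62 in epithelial, -0.75 in endothelial, -0.47 in mesenchymal and 0.06 in immune sums. The immune value lay 0.68 above the epithelial one in that model. Leaving out 1 library at a time gave adjusted p-values of 0.00282 to 0.0398. Fkbp5 (0.117), Zbtb16 (0.151) and Nr3c1 (0.164) were not called. Within immune classes, Tsc22d3 had log2 fold changes of -0.21 in alveolar macrophage-like, -0.15 in cycling alveolar macrophage-like and -0.18 in monocyte-like cells. In neutrophil-like cells the value was -0.54 and in macrophage-like cells -0.02. None of these was called. Alveolar macrophage-like cells, the class with the lowest Tsc22d3 mean, made up less of the immune cells in KO, and macrophage-like cells more. The part of this makeup in the immune sum was not tested.

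Promoter sequences of Tsc22d3 and Fkbp5, which fell together in endothelial cells, are shown because they let the receptor's motif be looked for. No window was available for Zbtb16, which fell with them. RefSeq windows of GRCm38.p6, 250 bases before to 50 after a start, matched 5 of the 8 genes and gave 8 windows. They were searched on both strands for the palindromic glucocorticoid response element (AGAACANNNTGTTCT), its single arm (AGAACA, or TGTTCT on the other strand, which the palindrome contains) and the cyclic AMP response element (TGACGTCA). Of 32851 windows in the table, 0.00913% held the palindrome, 18.97% the single arm and 1.79% the cyclic AMP element. The palindrome and the cyclic AMP element had no match in the 8 windows, and the single arm had 1, which begins 185 bases before a start of Tsc22d3. The windows of that start (chrX:140600473-140600772, minus strand) and of Fkbp5 (chr17:28486100-28486399, minus strand) follow, with the single arm in capitals. The other windows of Tsc22d3 held no match and are not printed.
Tsc22d3: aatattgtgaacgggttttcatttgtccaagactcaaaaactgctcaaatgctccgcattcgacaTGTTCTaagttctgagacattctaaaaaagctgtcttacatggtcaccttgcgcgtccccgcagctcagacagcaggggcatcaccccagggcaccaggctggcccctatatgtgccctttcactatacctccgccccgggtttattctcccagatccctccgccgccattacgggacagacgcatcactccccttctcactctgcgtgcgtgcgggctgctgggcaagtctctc
Fkbp5: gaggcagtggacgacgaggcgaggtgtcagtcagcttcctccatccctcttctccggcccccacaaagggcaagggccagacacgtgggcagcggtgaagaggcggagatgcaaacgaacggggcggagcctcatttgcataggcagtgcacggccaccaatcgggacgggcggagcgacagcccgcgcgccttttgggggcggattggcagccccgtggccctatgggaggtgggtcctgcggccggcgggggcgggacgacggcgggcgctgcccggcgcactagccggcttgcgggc
A match of letters is a description, and windows this short leave out the distant elements through which the receptor is known to act on both genes.

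The members were set beside 7 lists of related genes, chosen with earlier results of these data known. Of 29 other glucocorticoid-induced targets, 5 were lower and 0 higher in all kept cells, where 2.99% of all genes were called lower. The 5 were Lcn2, Anxa1, Sgk1, Dusp1 and Il1r2. Lcn2, an iron-binding defence protein and a neutrophil marker, went from 151 and 163 CPM to 99.9, 84.1 and 85.2 CPM (log2 fold change -0.81, edgeR adjusted p = 0.0218). Anxa1, which restrains inflammation, went from 187 and 208 CPM to 125, 138 and 131 CPM (-0.59, 0.0222). Sgk1, a kinase that promotes sodium uptake, went from 127 and 119 CPM to 89.1, 69.8 and 87.1 CPM (-0.59, 0.048). The list's median log2 fold change was -0.15, and that of all genes was 0.00813.

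By lineage, the same list had 6 lower and 1 higher of 28 in epithelial cells, 2 lower and 1 higher of 25 in endothelial cells, 0 of 28 in mesenchymal cells, and 7 lower and 1 higher of 28 in immune cells. The shares of all genes called lower were 6.99%, 3.46%, 0.13% and 4.61%, and the list's medians were -0.27, -0.18, -0.12 and 0.08. In immune cells the median thus lay above 0 although more targets were called lower than higher. In epithelial cells Lcn2 (-1.42), Sult1a1, a sulfotransferase (-1.13), and Dusp1, a phosphatase of MAP kinases (-0.83), fell the most among those with at least 10 CPM, and Bcl6, a transcriptional repressor, rose (0.85). In endothelial cells Cdkn1a (-1.15), a cyclin-dependent kinase inhibitor, and Txnip (-0.55), an inhibitor of thioredoxin, fell, and Cdkn1c (0.78), of the same family as Cdkn1a, rose. In immune cells Sgk1 (-0.76), the transcription factor Klf9 (-0.68) and Angptl4 (-0.52), an inhibitor of lipoprotein lipase, fell, and Txnip rose (0.39). The targets moved in both directions, and Txnip fell in one lineage and rose in another. All values in this paragraph are log2 fold changes of calls at an edgeR adjusted p under 0.05.

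Among 15 genes of the fetal lung that corticoids are known to alter, 5 were lower and 1 higher in all kept cells, where 2.99% of all genes were called lower and 4.11% in either direction. The list's median was -0.46 and that of all genes 0.00813. Aqp5 and Sftpd were also among the markers used to name AT1-like and AT2-like cells, and Sftpd is a listed club marker too. Sftpa1, Sftpb, Sftpc and Abca3, of the same list, were tested and not called. Sftpd, a surfactant protein, went from 132 and 119 CPM to 59.1, 37.5 and 50.9 CPM, and Aqp5, a water channel of AT1 cells, from 68.5 and 87.2 CPM to 22.3, 31.7 and 38.1 CPM. All 3 sodium channel subunits were lower: Scnn1g (log2 fold change -1.29), Scnn1b (-0.99) and Scnn1a (-0.70). Mdk, a growth factor that the receptor is known to repress in fetal lung, rose from 66.1 and 88.5 CPM to 159, 133 and 143 CPM (0.91, edgeR adjusted p = 0.0323). Epithelial cells were 24.6% and 19.8% of kept cells in Het and 16.9%, 14.3% and 15.1% in KO. Mesenchymal cells were 12.9% and 14.99% in Het and 29.7%, 19.3% and 22.9% in KO. In alveolar myofibroblast-like cells, a mesenchymal class, Mdk was 576 and 575 CPM in Het and 528, 916 and 807 CPM in KO. The groups overlapped there and Mdk was not called (0.38, edgeR adjusted p = 0.465). The part of these shares in the values over all kept cells was not tested.

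Within epithelial cells 4 of the 15 were lower and 2 higher, where 6.99% of all genes were called lower and 11.2% in either direction. Aqp5 (-1.06), Sftpd (-1.02), Scnn1g (-0.99) and Scnn1b (-0.73) fell there, and Mdk (1.65) and Vcan (1.41), a matrix proteoglycan, rose. Sftpa1, Sftpb, Sftpc and Abca3 were not called there either. The AT2 markers summed to 40668 to 44286 CPM in Het and 26331 to 42159 CPM in KO, which overlapped. Of the club markers, which include Sftpd, 8 of 10 were called lower. AT2-like cells, which make surfactant, were 18.9% and 16.0% of epithelial cells in Het and 7.74%, 7.76% and 14.5% in KO. The part of these shares and markers in the epithelial values was not tested. Mdk also rose in endothelial cells, from 23.6 and 38.1 CPM to 79.4, 91.5 and 91.6 CPM (1.52, edgeR adjusted p = 0.00378).

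**Figure D5:**
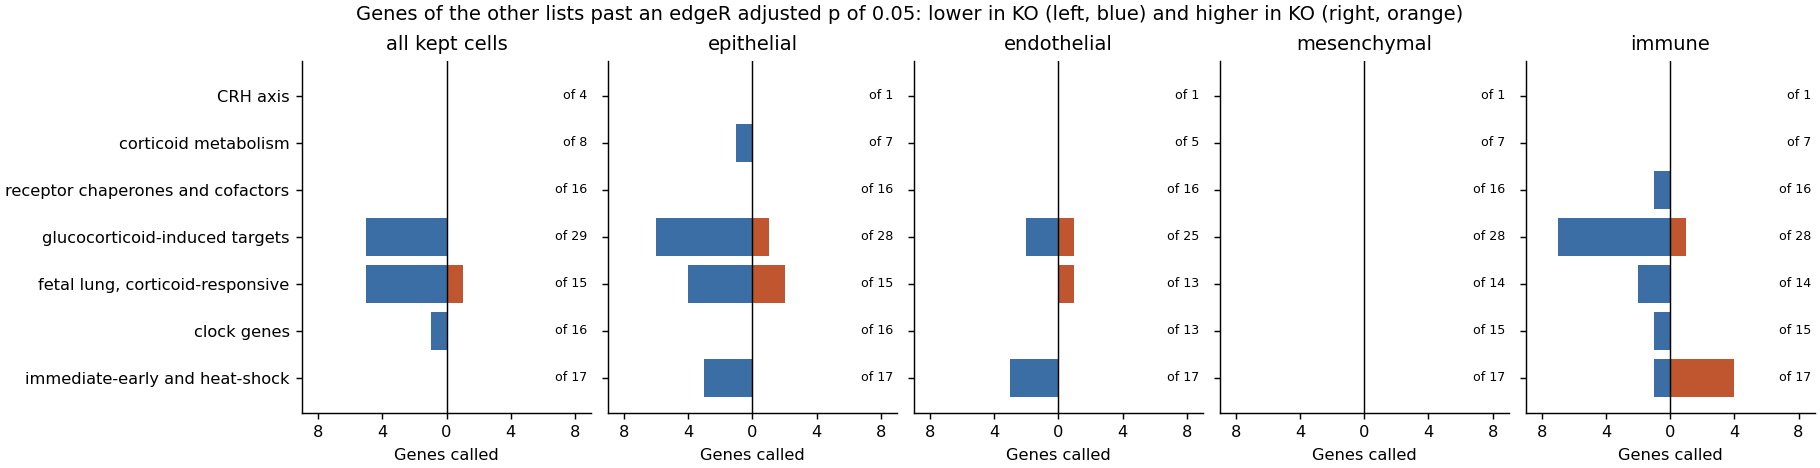
Number of genes past an edgeR adjusted p of 0.05 in each of the 7 other lists (y axis), lower in KO to the left and higher to the right (x axis), in all kept cells and 4 lineages, with the number tested at the right edge. Glucocorticoid-induced targets and corticoid-responsive genes of fetal lung hold 11 of the 12 calls in all kept cells, and the mesenchymal lineage has none.

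The remaining lists gave few calls. Of 16 receptor chaperones and cofactors, Ncoa1, a coactivator of the receptor, was called in immune cells, from 54.1 and 56.0 CPM to 42.7, 42.7 and 44.2 CPM (log2 fold change -0.35, edgeR adjusted p = 0.00877), and 0 in the other 3 lineages and in all kept cells. Of 11 genes of corticoid synthesis, metabolism and transport, 7 were tested in epithelial cells. Abcb1a, which exports steroids from cells, was called lower there (-0.99), at 4.77 and 5.28 CPM in Het and 2.52, 1.86 and 3.20 CPM in KO. Among 16 other clock genes, Bhlhe41 was called lower in all kept cells (-0.76), and Bhlhe40 among the 15 tested in immune cells (-0.35). Of all genes tested, 2.99% were called lower in all kept cells, 6.99% in epithelial cells and 4.61% in immune cells. Abcb1a, Bhlhe41, Il1r2, Scnn1a, Scnn1b and Vcan fall outside the rule for named genes and were named after their values were seen, because the counts are small.

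Of 17 immediate-early and heat-shock genes raised by dissociation, 3 were lower in epithelial and 3 in endothelial cells, and in immune cells 4 were higher and 1 lower. Of all genes, 11.2%, 4.65% and 7.92% were called in these lineages. Hspb1, a small heat-shock protein, went from 152 and 168 CPM to 32.3, 28.3 and 38.8 CPM in endothelial cells (log2 fold change -2.26, edgeR adjusted p = 0.000144). In immune cells Jun went from 254 and 268 CPM to 480, 398 and 389 CPM (0.70, edgeR adjusted p = 0.00528). Within alveolar macrophage-like cells 0 of the 17 were higher and 5 lower (10.2% of all genes called). Cycling alveolar macrophage-like cells had 2 higher and 0 lower (3.01%). Macrophage-like cells had 0 higher and 1 lower (1.14%), and monocyte-like cells 0 of either (1.36%). Neutrophil-like cells had 0 higher and 1 lower of 14 (0.0554%). The part of the immune makeup in the immune sums was not tested. Of the 12 list genes called in all kept cells, 0 were called without Het1, without Het2 or with sex as a covariate, 7 without KO2 and 1 without KO3. DESeq2 called 20.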

How the data were processed

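Dissociated whole lungs of 5 embryos at E18.5 gave 1 library each. The deposited matrices hold unnormalized UMI counts for each barcode. Cell Ranger 4.0.0 and mm10 are named in the submitters' processing notes. The members and the lists were chosen with earlier results of these data known, and details of the rule that names clusters were set after the clusters were seen.

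Barcodes with under 500 genes or over 15% mitochondrial UMIs were left out. Red-cell barcodes had fewer genes and over 50% haemoglobin UMIs. Doublets were scored against simulated pairs and left out, which gave 18869 cells. Cells were clustered with scanpy 1.11.5 (2000 variable genes, 30 components, Leiden resolution 1) and named from marker lists. Levels were ranked over 20 classes with at least 20 cells in each library, and 5988 kept cells were mixed.

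Sums of UMI counts for each library, of all kept cells, 4 lineages and 9 classes, were tested with edgeR 4.0.16 (quasi-likelihood, TMM, filterByExpr, Benjamini-Hochberg adjustment over all genes), genotype as the only term. The alveolar myofibroblast-like class was added after seeing the data, since 1 library held fewer than 100 of its cells. Crh carries no test. The test was tried on simulated data: of genes changed by 1 on the log2 scale, 79.5% were recovered in all kept cells (17672 genes), 63% in endothelial cells (12036 genes) and 50% in alveolar myofibroblast-like cells (9056 genes). Of genes changed by 0.75, 48%, 27% and 15% were recovered in the same sums. The simulation gave every gene the same dispersion, a measure of the spread between libraries. From each list, up to 3 called genes per direction with at least 10 CPM and no overlap were named. Alternatives were DESeq2 1.42.0, library size alone, other filters, clustering and doublet handling, a replicate block, a sex covariate and leaving out libraries in turn. Positions are GRCm38 with GENCODE M21 gene models, which held 32158 of 32285 gene identifiers.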

Additional observations from a re-analysis of the deposited data

Results flagged for a closer look

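The difference of Tsc22d3 between genotypes varied with the lineage, by a test of the genotype by lineage terms over all 4 lineages (edgeR adjusted p = 0.000898). Every KO library lay below both Het libraries in epithelial, endothelial and mesenchymal sums, and the groups overlapped in immune sums. Tsc22d3 lies on the X chromosome and 2 of the 3 KO embryos were female. The male KO3 stood at 0.755 times the Het mean in epithelial, 0.665 in endothelial, 0.883 in mesenchymal and 1.14 in immune cells, and the female KO libraries at 0.598, 0.555, 0.637 and 0.987 times. In the immune classes tested, none of which had Tsc22d3 called, its log2 fold changes ran from -0.54 to -0.02. The makeup of the immune cells differed between the groups. The part of sex or of this makeup in the result was not tested with these terms.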

How the results depend on the processing

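None of the 9 member results called in a lineage or class changed sign in its 17 alternatives, and the Crh ratios of KO to Het stayed above 1. Uncalled values near 0 did: Tsc22d3 in immune cells went from 0.06 to -0.02 with the replicate block, Nr3c1 in epithelial cells from -0.02 to 0.08 with sex as a covariate, and Zbtb16 in alveolar myofibroblast-like cells from -0.16 to 0.02 without mixed cells. With sex as a covariate, members called fell to 0 in epithelial, endothelial, immune and alveolar myofibroblast-like cells and to 1 over the cell classes (from 3), and list genes called were 0 in all kept cells, 8 in epithelial (from 17), 3 in endothelial (from 7) and 7 in immune cells (from 17). Without mixed cells, members called were 0 in epithelial, 1 in endothelial and 2 in alveolar myofibroblast-like cells, and list genes 7 in epithelial and 3 in mesenchymal cells. DESeq2 called 1 member in mesenchymal cells, and 20 list genes in all kept, 11 in endothelial and 6 in mesenchymal cells. With no filter on low counts, members called were 1 in mesenchymal and 2 in alveolar myofibroblast-like cells, and list genes 26 in epithelial, 21 in endothelial and 9 in mesenchymal cells. Library size alone gave 2 members by genotype and lineage (Fkbp5 added, adjusted p = 0.0332) and 2 list genes in mesenchymal cells. In alveolar myofibroblast-like cells, 1000 genes with 10% mitochondrial UMIs gave 0 and Leiden resolution 2 gave 2. Without erythroid and immune cells, 7 list genes were called. The share of all genes called under each alternative is not given, here or below. A change in a count thus cannot be told from a change over all genes.

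Leaving out 1 library at a time gave members called of 0 to 0 in all kept, 0 to 1 in epithelial, 0 to 3 in endothelial, 0 to 0 in mesenchymal, 0 to 2 in immune and 0 to 2 in alveolar myofibroblast-like cells, 0 to 4 over the classes and 1 to 2 by genotype and lineage. List genes called ran from 0 to 12 in all kept, 6 to 23 in epithelial, 3 to 11 in endothelial, 0 to 6 in mesenchymal and 1 to 22 in immune cells. The log2 ratio of Crh in alveolar myofibroblast-like cells ran from 1.24 to 1.54, and in all kept cells from 1.69 to 2.08.

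The replicate numbers are shared, but same-numbered libraries did not deviate together (r = -0.12 for number 1 and -0.25 for number 2). With the replicate block, members called were 1 in endothelial (Zbtb16 0.0558 and Fkbp5 0.0714 lost), 2 in immune and 3 in alveolar myofibroblast-like cells, and list genes 0 in all kept cells. Nr3c1 in cycling alveolar macrophage-like cells lost the call (0.0612).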

Other observations

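In alveolar macrophage-like cells, where Nr3c1 was lower in KO, 7 of 24 glucocorticoid-induced targets were lower and 2 higher, beside 6.65% of all genes lower and 10.2% in either direction. The cluster led by Spp1, Atp6v0d2 and Inhba held 154 and 161 cells of this class in Het and 5, 17 and 22 in KO. Nfkbia, the inhibitor of NF-kB, went from 827 and 830 CPM in Het to 391, 363 and 411 CPM in KO (log2 fold change -1.09, SE 0.08, edgeR adjusted p = 4.705e-06), with no overlap. Klf9 (-0.50) and Anxa1 (-0.50) were also lower, and Txnip was higher (0.49). The receptor's chaperones Fkbp4 (0.34) and Ppid (0.36) rose in the same cells. Markers of alveolar macrophages summed to 4829 to 5127 CPM in Het and 2907 to 3044 CPM in KO there, and the part of either in these values was not tested.

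In alveolar fibroblast-like cells, the class with the most Hsd11b1, 3 of 25 targets were lower and 1 higher, beside 3.38% of all genes lower and 4.22% in either direction. Anxa1 went from 23.5 and 23.7 CPM to 6.54, 7.97 and 5.32 CPM (log2 fold change -1.84, SE 0.30, edgeR adjusted p = 0.00643). Cdkn1a (-0.95) and Klf9 (-0.65) fell as well, and Rgs2, a brake on G protein signalling, rose (0.82).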
